A study of Sus scrofa with 15 samples.

Results

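The genes described here are 10 genes of the cAMP pathway that holds the oocyte in meiotic arrest, taken by symbol from the 22516 genes of the deposited pig gene table. They code for the receptors *GPR3* and *GPR12*, the adenylyl cyclases *ADCY3* and *ADCY9*, the phosphodiesterases *PDE3A* and *PDE4D*, and the protein kinase A subunits *PRKAR1A*, *PRKAR2A*, *PRKACA* and *PRKACB*. All 10 were found. They were measured by RNAseq in pig oocytes, with 5 libraries for each of 3 groups and 15 oocytes pooled in each library. GV (germinal vesicle) oocytes were taken without culture from fresh ovarian follicles. MII (metaphase II) oocytes had a first polar body after in vitro maturation of cumulus oocyte complexes for 44 h, and ‘damaged’ oocytes went through the same maturation and had none. All oocytes came from abattoir sow ovaries and were stripped of cumulus cells with hyaluronidase. The maturation medium held gonadotrophins, EGF, insulin, cysteamine, antibiotics and sow follicular fluid, which GV oocytes did not meet. ‘Damaged’ is defined by the missing polar body alone, and the stage at which these oocytes stopped is not given.

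A fully grown oocyte stays arrested in prophase because cAMP keeps protein kinase A active. The constitutively active receptors GPR3 and GPR12 signal through the G protein Gs to adenylyl cyclases, which make cAMP, and PDE3A is the phosphodiesterase that degrades it in the oocyte. cAMP binds the regulatory subunits of protein kinase A and frees the catalytic subunits, which then restrain the CDK1 and cyclin B complex by way of the CDC25 phosphatases and the WEE kinases. In the follicle, cGMP from the surrounding cumulus cells enters through gap junctions and inhibits PDE3A.

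By RefSeq positions on Sscrofa11.1, *GPR3* (ENSSSCG00000003576) is at chr6:84610107-84613202 and *GPR12* (ENSSSCG00000009301) at chr11:4426797-4427953. The cyclase genes share a chromosome, with *ADCY3* (ENSSSCG00000008578) at chr3:113875005-113969053 and *ADCY9* (ENSSSCG00000007950) at chr3:38117211-38303600. *PDE3A* (ENSSSCG00000028662) is at chr5:52413503-52737771 and *PDE4D* (ENSSSCG00000016929) at chr16:37897300-39406534. Of the regulatory subunits, *PRKAR1A* (ENSSSCG00000017259) is at chr12:11662344-11681490 and *PRKAR2A* (ENSSSCG00000011363) at chr13:31427786-31517005. Of the catalytic subunits, *PRKACA* (ENSSSCG00000013771) is at chr2:65074876-65095564 and *PRKACB* (ENSSSCG00000040920) at chr6:129520397-129636207.

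Estimated counts summed to between 6.40 and 23.6 M per library, and the shallowest library, GV 3, was left out of the fits following the study's exclusion of a GV library with few reads. Where its values are given, they are given by themselves, and they enter no test but the alternative with all 5 GV libraries. Of the 15 columns of the gene table, 7 carry the name of another library than the one whose total they match, and each column was given to the library of its total. Levels in CPM are counts scaled to a common library total, unless library sizes are named after multiplying each total by its TMM factor (described below). All 11 oocyte markers in the table were detected, and they summed to 12585 to 16333 CPM in GV (7799 in GV 3) and 25283 to 30298 after maturation. With TMM factors the rise of the sum was carried by *BTG4*, at 1448 to 3847 CPM in GV and 14037 to 19555 after maturation. Marker sums were not taken on library sizes. The factors were higher in GV, which lowers CPM there, so any rise of a marker sum depends in part on this scaling. *ZP3* went the other way, at 1527 to 2068 and 59.6 to 138 CPM, as did *GDF9*, at 1733 to 2313 and 255 to 426. Of 15 cumulus and granulosa cell markers in the table, *IHH* was at 0 in every library and *FSHR* reached at most 0.696 CPM. The list summed to 102 to 148 CPM in GV, 166 to 289 in MII and 166 to 259 in ‘damaged’ oocytes, most of it *KITLG*. *GREM1*, another of these markers, went the other way, from 12.1 to 18.6 CPM in GV to 4.02 to 6.75 after maturation, and *AMH* was at 0.119 to 0.395 CPM in GV and at most 0.239 after it. The part of such cells in the results was not tested. Theca and stroma markers summed to 6.99 to 13.8 CPM over all groups. Blood and endothelium markers summed to 3.54 to 5.79 CPM in GV and 8.45 to 25.3 after maturation, nearly all of it *PECAM1*, with *CD74* at 0 throughout.

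Levels are given as CPM scaled by TMM factors, which set the libraries against each other by the typical gene. These factors were 1.35 to 1.73 in the GV libraries used and 0.794 to 0.922 after maturation. With them the median of all 13230 genes tested lay at -0.17 on the log2 scale in MII and at -0.14 in ‘damaged’ against GV. On library sizes alone it lay at -1.09 and -1.01, so a gene near the middle moves from little change to a fall by the choice of scaling. Both values are therefore given for each gene, and the position against the median gene with TMM factors, which differed by at most 0.0337 from that on library sizes. That closeness is fixed in advance, since a scaling shifts all genes by nearly the same amount. The RNA content of an oocyte was not measured, and libraries were made from polyA RNA. The paper states that transcription stops when oocytes resume meiosis, and that maturation draws on stored mRNAs. A rise of any gene named here is thus a rise of its part of the polyA RNA read. The length of polyA tails was not measured, and whether the amount of a transcript per oocyte rose was not tested. In pools of oocytes a lower level in every oocyte and fewer oocytes with the transcript cannot be told apart.

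Of the 10 genes, 9 passed the filter on low counts and were tested. In MII against GV 2 were higher and 2 lower at a false discovery rate (FDR) under 0.01 in limma-voom, where 28.2% of all genes tested were higher and 34.2% lower. In ‘damaged’ against GV 3 were higher and 2 lower, where the shares of all genes were 28.0% and 33.4%. The median of the 9 log2 fold changes was 0.19 in MII and 0.24 in ‘damaged’ oocytes. Both comparisons use the same 4 GV libraries. On library sizes alone 1 gene was higher and 5 lower in each. Of all genes 10.9% were then higher and 57.5% lower in MII, and 11.2% and 56.0% in ‘damaged’ oocytes.

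**Figure D1:**
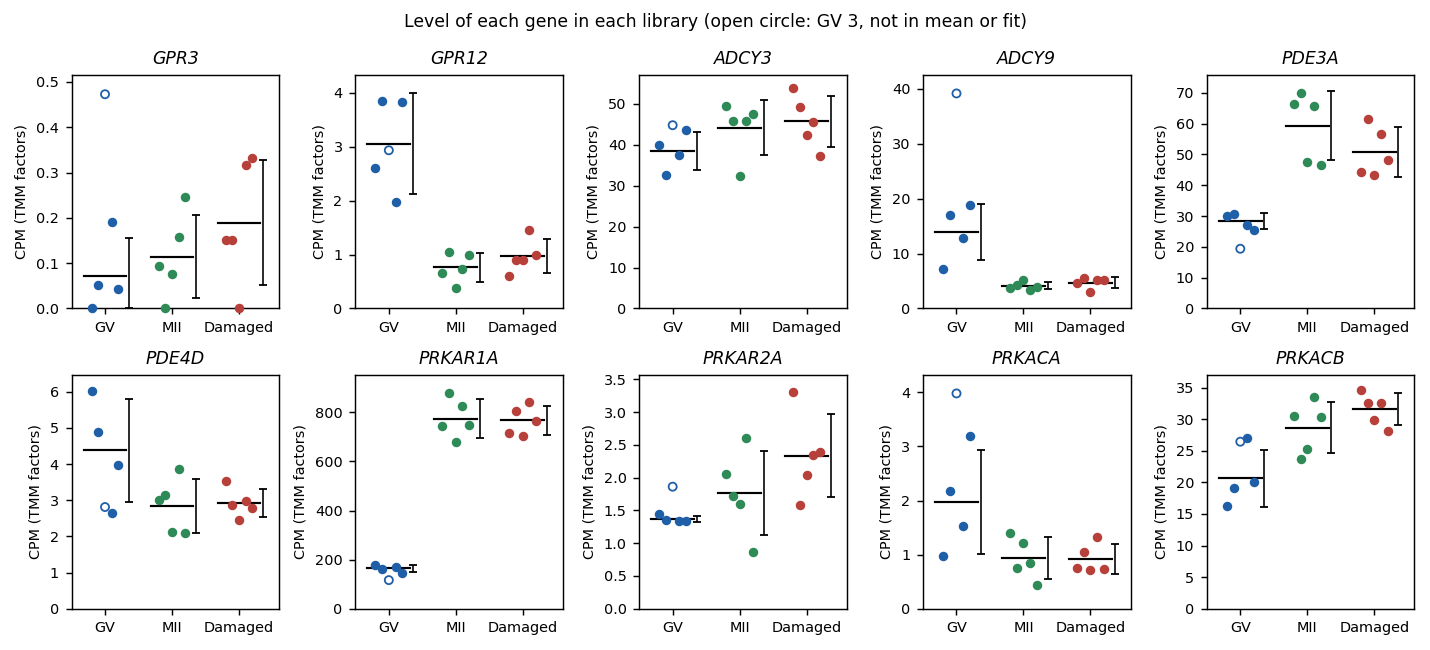
Level of each of the 10 genes in CPM with TMM factors (vertical axis from 0) in each library of the 3 groups. Filled points are libraries, horizontal lines are group means, bars are the SD, and the open circle is GV 3, which is in neither. The 4 GV libraries of *PRKAR1A* lie at 146 to 179 CPM and the 10 libraries after maturation at 677 to 878.

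*GPR12*, one of the Gs-coupled receptors that keep cAMP high, fell after maturation. Its level was 2.60, 3.84, 1.97 and 3.82 CPM in GV 1, 2, 4 and 5, and 2.93 in GV 3. The 5 MII libraries held 0.655, 1.05, 0.381, 0.734 and 0.983 CPM, and the ‘damaged’ libraries 0.602, 0.901, 0.900, 1.46 and 0.994. Every GV library was above every library after maturation. The log2 fold change was -1.96 ± 0.33 (SE, n = 5 against 4) in MII (FDR = 2.81e-05, limma-voom) and -1.61 ± 0.31 in ‘damaged’ oocytes (FDR = 0.000132). On library sizes it was -2.86 and -2.47, and against the median gene -1.79 and -1.47. The counts behind these levels were 41.2 to 92.2 in GV and 4.92 to 22.6 after maturation, so single libraries carry a large counting error. Leaving out each library in turn gave -2.15 to -1.76 in MII, past -2 and thus a DEG without GV 1, GV 4, MII 2 or MII 5. In the 8 libraries whose column names agree, an alternative chosen after seeing the data, the fall in ‘damaged’ oocytes was -1.28 and missed the threshold (FDR = 0.0205).

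*GPR3*, the related receptor, was at the floor of detection in these libraries. It had 0 to 4.02 estimated counts in the 4 GV libraries, 0 to 3.94 in MII and 0 to 4.92 in ‘damaged’ oocytes, with 5.16 in GV 3. A count of 0 allows up to 3 counts, which is 0.127 to 0.251 CPM by library size in the 14 libraries. *GPR3* did not pass the filter and no fold change is given. In TPM, which sets levels per transcript length and per library, *GPR12* in GV was at 1.92 ± 0.81 (SD, n = 4) and *GPR3* at 0.0897 ± 0.098.

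Of the cyclases, *ADCY9* fell and the total of *ADCY3* did not pass the test with TMM factors. *ADCY9* was at 7.27, 17.1, 12.7 and 18.8 CPM in GV 1, 2, 4 and 5. In MII it was at 3.79, 4.24, 5.12, 3.45 and 3.93 CPM and in ‘damaged’ oocytes at 4.65, 5.47, 3.05, 5.18 and 5.26. The groups did not overlap, but the GV libraries differed among themselves by more than the others did. GV 3 stood above them at 39.2 CPM, from 428 counts in the smallest library. Against GV it was at -1.70 ± 0.27 on the log2 scale in MII (FDR = 1.08e-05) and -1.52 ± 0.26 in ‘damaged’ oocytes (FDR = 3.27e-05). With GV 3 in the fit these became -1.97 and -1.78, on library sizes -2.60 and -2.37, and against the median gene -1.53 and -1.38.

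*ADCY3*, the other cyclase, was the most abundant of the 10 genes per length after *PRKAR1A* in each group. It lay at 39.9, 32.6, 37.4 and 43.6 CPM in GV 1, 2, 4 and 5, with 44.7 in GV 3. The MII libraries held 49.4, 45.8, 32.3, 45.7 and 47.5 CPM and the ‘damaged’ libraries 53.8, 49.1, 42.5, 45.5 and 37.3, overlapping GV. The log2 fold change of 0.19 (95% interval -0.13 to 0.51) in MII and 0.24 (-0.08 to 0.56) in ‘damaged’ oocytes missed the threshold (FDR = 0.269 and 0.165). Against the median gene it was at 0.36 and 0.38. Its direction depends on the scaling, since on library sizes it was -0.72 (FDR = 0.000228) and -0.63 (FDR = 0.000779).

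The isoforms of *ADCY3* changed where its total did not pass the test with TMM factors. Kallisto divided its reads between ENSSSCT00000051123.3, of 4293 bases, and ENSSSCT00000009387.5, of 4121 bases. An isoform's share is its part of the gene's TPM in a library, which no scaling of libraries moves. The longer isoform held 22.4, 39.5, 37.2 and 63.2% of *ADCY3* in GV 1, 2, 4 and 5, and 77.4% in GV 3. In MII oocytes its share was 3.01, 2.07, 3.96, 2.82 and 5.09%, and in ‘damaged’ oocytes 4.22, 2.98, 10.6, 4.27 and 5.33%. Every GV library was above every library after maturation.

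The mean share of the longer *ADCY3* isoform fell by 37.2 points in MII (FDR = 6.63e-07, limma diffSplice) and by 35.1 points in ‘damaged’ oocytes (FDR = 8.59e-07). A two-sided exact permutation test of the share gave p = 0.00794 in each comparison, the smallest possible with 5 against 4 libraries, and 0.0357 after adjustment over the 9 isoforms tested. That adjustment counts both *ADCY3* isoforms as separate tests, though their shares mirror each other. In TPM the longer isoform went from 9.84 ± 6.52 (SD, n = 4) in GV to 0.421 ± 0.161 (n = 5) in MII and 0.715 ± 0.352 in ‘damaged’ oocytes. The shorter isoform was at 12.9 ± 1.54, 12.0 ± 1.37 and 12.6 ± 1.08 TPM. These levels carry no TMM factor, and on this scale the total of *ADCY3* was lower after maturation too. It was at 22.7 ± 5.26 TPM in GV, 12.4 ± 1.42 in MII and 13.3 ± 0.833 in ‘damaged’ oocytes. That the shorter isoform kept its level thus holds for TPM alone. The estimated counts of the longer isoform were 182 to 680 in GV and 13.1 to 77.8 after maturation. Where in the gene the isoforms differ was not analysed here.

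**Figure D2:**
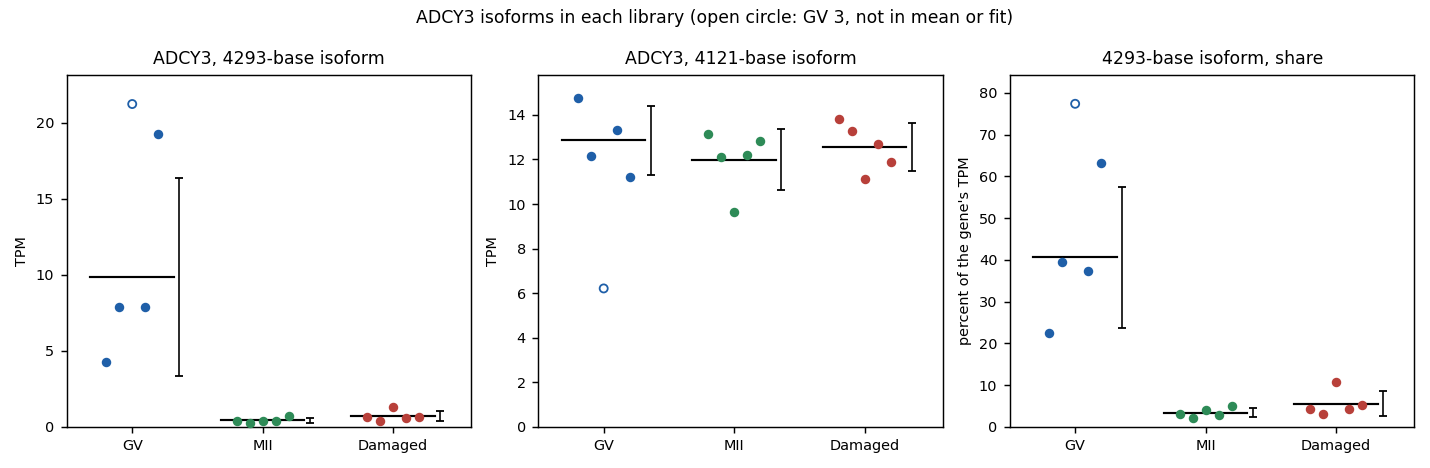
TPM of the 4293-base (left) and 4121-base (middle) isoform of *ADCY3*, and the share of the 4293-base isoform in percent of the gene's TPM (right), in each library. Lines are group means, bars the SD and the open circle GV 3. The longer isoform is at most at 1.32 TPM in all 10 libraries after maturation, and the shorter one lies between 9.66 and 14.8 TPM in the 14 libraries used.

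Isoform shares were tested for 9 isoforms of 4 of the genes, and 3 were called in MII and 2 in ‘damaged’ against GV, at FDR under 0.01 and a share difference over 10 points. Of all 14951 isoforms tested, 27.8% were called in each comparison. Both calls in ‘damaged’ oocytes were the 2 isoforms of *ADCY3*, whose shares mirror each other, so they are 1 change. In MII these 2 were called again, beside 1 isoform of *PRKACB*. The isoforms of *PDE3A* and *ADCY9*, also mirrored pairs, were not called. *PDE3A* was mostly its 6227-base isoform, at 88.2% ± 4.3 (SD, n = 4) in GV, 84.0% ± 8.1 (n = 5) in MII and 83.2% ± 4.2 in ‘damaged’ oocytes. *ADCY9* was mostly its 6399-base isoform, at 68.4% ± 5.2, 66.8% ± 14.5 and 75.9% ± 14.4, and in TPM this isoform went from 3.47 ± 1.77 in GV to 0.444 ± 0.085 in MII, and the 8437-base isoform from 1.51 ± 0.66 to 0.234 ± 0.13. *GPR3*, *GPR12*, *PRKAR1A* and *PRKAR2A* each had 1 isoform with a count. The 2408-base isoform of *PRKACA* held all its TPM in the 14 libraries used and 50.4% in GV 3. *PDE4D* was mostly its 6671-base isoform, at 94.0% ± 2.1 in GV, 93.3% ± 3.6 in MII and 93.4% ± 3.4 in ‘damaged’ oocytes.

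*PDE3A*, the phosphodiesterase of the oocyte, was higher after maturation with TMM factors. It lay at 30.2, 30.8, 27.0 and 25.4 CPM in GV 1, 2, 4 and 5 and at 19.4 in GV 3. The MII libraries held 66.3, 70.0, 47.6, 65.7 and 46.6 CPM and the ‘damaged’ libraries 44.2, 61.6, 43.4, 56.5 and 48.2. On this scale the groups did not overlap. Its log2 fold change was 1.04 ± 0.16 in MII (FDR = 9.31e-06) and 0.83 ± 0.16 in ‘damaged’ oocytes (FDR = 0.000137). On library sizes it was 0.13 (FDR = 0.444) and -0.04 (FDR = 0.807), so whether its level rose depends on the scaling. Against the median gene it was at 1.22 and 0.97, a position that the choice of scaling leaves nearly the same by construction.

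*PDE4D*, a phosphodiesterase known for its work in the cells around the oocyte, was low and did not pass the test. The part of cumulus cells in its level was not tested. It ranged from 2.64 to 6.02 CPM in GV (2.81 in GV 3), from 2.09 to 3.87 in MII and from 2.46 to 3.54 in ‘damaged’ oocytes. MII oocytes were at -0.57 ± 0.26 against GV on the log2 scale (FDR = 0.0509) and ‘damaged’ oocytes at -0.52 ± 0.25 (FDR = 0.0718). Without GV 4 the value in MII was -0.79 and passed (FDR = 0.00773). On library sizes it was -1.49 (FDR = 2.30e-05) and -1.40 (FDR = 4.22e-05), and against the median gene -0.40 and -0.39. Within a library the ratio of *PDE3A* to *PDE4D* TPM was 7.31 ± 2.35 (SD, n = 4) in GV, 22.2 ± 2.46 (n = 5) in MII and 18.4 ± 3.45 in ‘damaged’ oocytes. The GV libraries reached at most 10.7, with GV 3 at 7.21, and the others were at least 13.1.

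*PRKAR1A*, the type I regulatory subunit that binds cAMP and holds the catalytic subunits inactive, had the largest change of the 9 genes tested with TMM factors and was then the one DEG among them, at an absolute log2 fold change over 2 as well as FDR under 0.01. On library sizes the DEGs were *GPR12* and *ADCY9* instead, and with only genes over 10 CPM *PRKAR1A* was at 1.90 in MII and 1.91 in ‘damaged’ oocytes, short of a DEG. DEGs were 4.50% (higher) and 17.1% (lower) of all genes tested in MII and 4.08% and 16.4% in ‘damaged’ against GV. The level was 179, 161, 171 and 146 CPM in GV 1, 2, 4 and 5, and 117 in GV 3. It rose to 744, 878, 677, 825 and 749 CPM in MII and to 717, 806, 704, 843 and 766 in ‘damaged’ oocytes. All 10 libraries after maturation were above every GV library, on library sizes as well.

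The rise of *PRKAR1A* was 4.70-fold in MII (log2 2.23 ± 0.12, FDR = 7.38e-12) and 4.67-fold in ‘damaged’ oocytes (2.22 ± 0.12, FDR = 8.25e-12). On library sizes it was 1.32 (FDR = 1.00e-09) and 1.35 (FDR = 7.73e-10), which passes the FDR but is not a DEG. Against the median gene it was 2.41 and 2.36. It rests on 3138 to 3588 counts per GV library and 7872 to 15564 after maturation, the deepest of the 10 genes. Among genes with a symbol, those whose log2 CPM followed *PRKAR1A* most closely over the 14 libraries were *NEIL3*, *SRBD1* and *KDELR2*, each with Pearson r = 0.997. These r values are a description, since the libraries share the step between GV and the later groups. Whether the amount of *PRKAR1A* transcript per oocyte rose, or only the part of it read as polyA RNA, was not tested.

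*PRKAR2A*, the type II regulatory subunit, was 155 to 624 times lower than *PRKAR1A* in TPM in the libraries after maturation and did not pass the test. It ranged from 1.34 to 1.45 CPM in GV (1.86 in GV 3), from 0.860 to 2.61 in MII and from 1.58 to 3.31 in ‘damaged’ oocytes, with 13.8 to 49.2 counts. The ‘damaged’ libraries lay above the 4 GV libraries used, and the MII libraries on both sides of them. Its log2 fold change was 0.29 ± 0.30 (FDR = 0.404) in MII and 0.72 ± 0.29 (FDR = 0.0330) in ‘damaged’ oocytes, on library sizes -0.62 and -0.15, and against the median gene 0.46 and 0.86.

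*PRKACB*, the beta catalytic subunit and the main catalytic transcript here, lay at 16.3, 19.2, 26.9 and 20.05 CPM in GV 1, 2, 4 and 5 and 26.4 in GV 3. It was at 30.5, 23.6, 25.2, 33.5 and 30.3 CPM in MII and at 34.7, 32.5, 29.9, 32.5 and 28.2 in ‘damaged’ oocytes. The ‘damaged’ libraries were all above GV and the MII libraries overlapped with it. In ‘damaged’ oocytes the log2 fold change of 0.63 ± 0.16 passed (FDR = 0.00156), and in MII that of 0.49 ± 0.16 did not (FDR = 0.0107). The MII call was gained without GV 4, MII 2, MII 3 or ‘damaged’ 5 (FDR = 0.00239, 0.00711, 0.00931 and 0.00798). It also passed in DESeq2 (FDR = 0.00230), without a filter (0.00962), with transcript counts summed per gene (0.00511), with MII and ‘damaged’ joined (0.00113) and with a replicate block (0.00909), but not in edgeR (0.0148), with all 5 GV libraries (0.0285), with only genes over 10 CPM (0.369) or in the 8 libraries with agreeing column names (0.157). In the last 2 settings the call in ‘damaged’ oocytes was lost too (FDR = 0.0745 and 0.134). That MII and ‘damaged’ oocytes differ is not shown by this, as their own comparison gave -0.14 (95% interval -0.46 to 0.17). On library sizes the log2 fold change was -0.24 (FDR = 0.210) in ‘damaged’ oocytes and -0.42 (FDR = 0.0330) in MII, and against the median gene 0.77 and 0.66.

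*PRKACA*, the alpha catalytic subunit, was low in all groups. Its range was 0.971 to 3.20 CPM in GV (3.98 in GV 3), 0.431 to 1.41 in MII and 0.721 to 1.33 in ‘damaged’ oocytes, from 6.90 to 77.1 counts. On the log2 scale it was at -1.09 ± 0.38 in MII (FDR = 0.0146) and -1.003 ± 0.38 in ‘damaged’ oocytes (FDR = 0.0226), neither past the threshold. On library sizes it was -1.98 (FDR = 0.000287) and -1.84 (FDR = 0.000530), and against the median gene -0.92 and -0.87. Without GV 1, at 0.971 CPM, it passed, at -1.36 (FDR = 0.00190) in MII and -1.27 (FDR = 0.00309) in ‘damaged’ oocytes. It also passed in MII with all 5 GV libraries (-1.26, FDR = 0.00811) and with MII and ‘damaged’ joined against GV (-1.05, FDR = 0.00417).

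**Figure D3:**
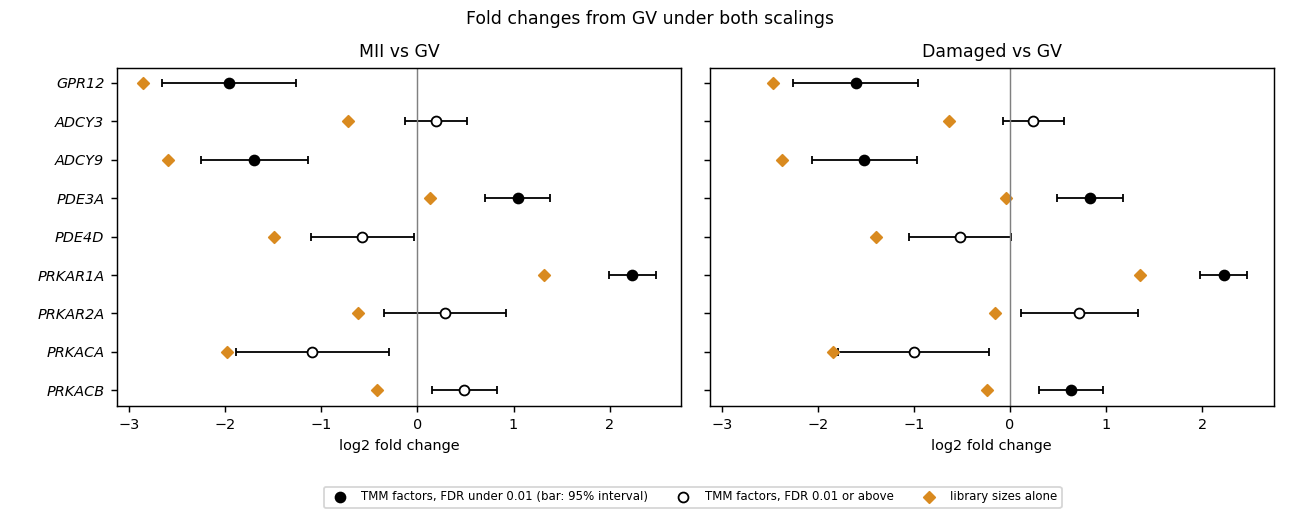
Log2 fold change of the 9 tested genes in MII (left) and ‘damaged’ (right) against GV. Circles with 95% intervals use TMM factors and are filled where FDR was under 0.01, and diamonds use library sizes alone. *PRKAR1A*, *GPR12*, *ADCY9*, *PDE4D* and *PRKACA*, and *PDE3A* in MII, keep their side of 0 under both scalings. The diamonds of *ADCY3*, *PRKAR2A* and *PRKACB*, and of *PDE3A* in ‘damaged’ oocytes, lie on the other side of 0 from their circles.

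*PRKACB* transcripts were estimated as 4 isoforms of 4371 to 4514 bases. The 4371-base isoform held 42.8, 37.9, 38.2 and 23.1% of its TPM in GV 1, 2, 4 and 5, and 29.3, 0, 0, 33.1 and 18.8% in MII. Its mean share fell by 19.3 points in MII (FDR = 0.00459) and was called, with p = 0.0794 in the exact permutation test. In GV 3, which is in no mean, the share was 81.2%. In ‘damaged’ oocytes the shares were 22.8, 47.1, 7.94, 31.7 and 26.5%, a mean difference of -8.27 points from GV (FDR = 0.370). The call in MII was lost without any 1 of GV 1, GV 2, MII 2 or MII 3 (FDR = 0.0107, 0.0114, 0.0450 and 0.0460), with a replicate block (FDR = 0.0746) and in the 8 libraries with agreeing column names (FDR = 0.130). The 4514-base isoform was at 20.4 to 33.7% in GV (4.19% in GV 3) and 39.2 to 65.8% in MII without overlap, 21.6 points higher on average, and missed the threshold (FDR = 0.0521). In ‘damaged’ oocytes it was at 32.05 to 44.9% (FDR = 0.235). How well short single reads divide such similar isoforms was not tested.

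Within each library, the regulatory members outweighed the catalytic members by more after maturation. The ratio of *PRKAR1A* plus *PRKAR2A* to *PRKACA* plus *PRKACB* TPM was 11.2, 7.85, 6.52 and 6.38 in GV 1, 2, 4 and 5, and 3.94 in GV 3. It was 25.3, 39.5, 27.7, 26.6 and 27.2 in MII and 22.5, 26.3, 25.4, 27.2 and 29.3 in ‘damaged’ oocytes. The lowest value after maturation was above the highest in GV, and *PRKAR1A* made up 87.4% ± 2.5 (SD, n = 4) of the TPM of these 4 genes in GV, 96.3% ± 0.57 (n = 5) in MII and 95.9% ± 0.45 in ‘damaged’ oocytes. These are ratios of transcripts, given as a description with no test, and other subunit genes are not in them.

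Of the catalytic subunits, *PRKACB* exceeded *PRKACA* 6.45 ± 2.96 times in GV, 19.2 ± 10.6 times in MII and 19.0 ± 4.51 times in ‘damaged’ oocytes. Of the cyclases, *ADCY3* exceeded *ADCY9* 5.45 ± 2.77 times in GV, 19.1 ± 4.91 times in MII and 17.4 ± 4.63 times in ‘damaged’ oocytes. GV 3 was at 3.47 and 1.97. In both pairs each GV library lay below each library after maturation.

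**Figure D4:**
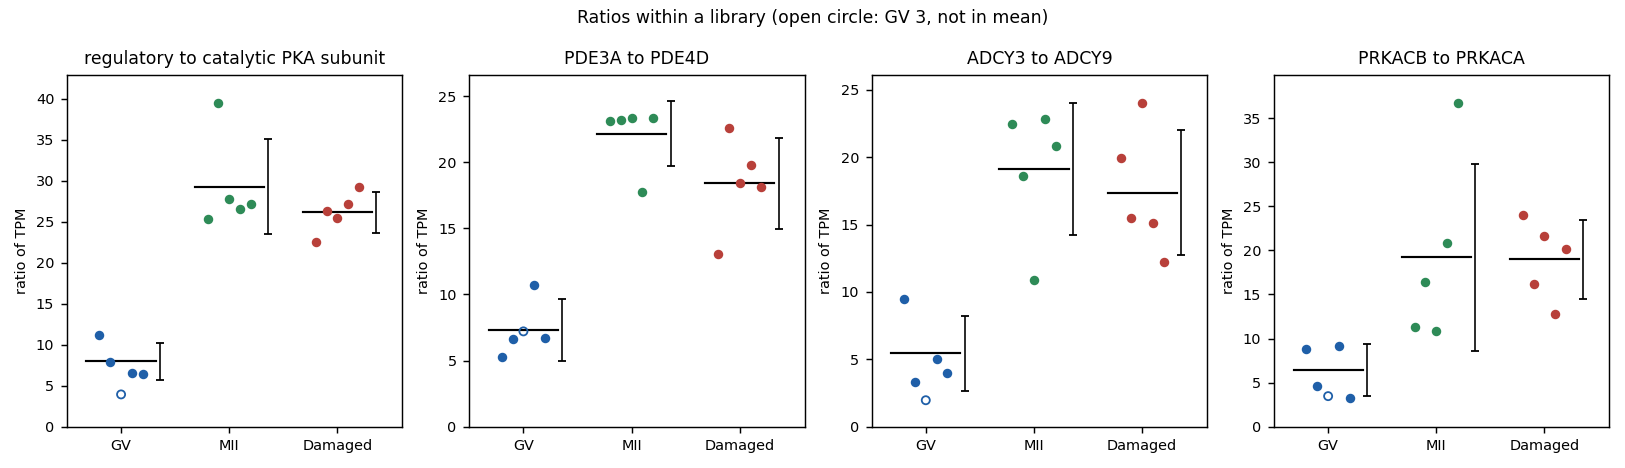
Ratios of TPM within each library (vertical axes from 0) for regulatory to catalytic protein kinase A subunits, *PDE3A* to *PDE4D*, *ADCY3* to *ADCY9* and *PRKACB* to *PRKACA*. Lines are group means, bars the SD and the open circle GV 3. In each panel all GV points lie below all points after maturation, and MII and ‘damaged’ points overlap.

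Per length, the order of the 10 genes was led by *PRKAR1A* in each group, at 101 ± 7.66 TPM (SD, n = 4) in GV, 230 ± 13.8 (n = 5) in MII and 237 ± 28.2 in ‘damaged’ oocytes. *ADCY3* followed at 22.7 ± 5.26, 12.4 ± 1.42 and 13.3 ± 0.833 TPM. *PRKACB* at 11.4 ± 3.07 and *PDE3A* at 10.6 ± 1.34 TPM came next in GV with overlapping ranges, and in MII *PDE3A* at 10.6 ± 1.57 lay above *PRKACB* at 7.56 ± 1.00 in all 5 libraries. In ‘damaged’ oocytes they were at 9.48 ± 1.53 and 8.61 ± 0.279 TPM and their order changed between libraries. *ADCY9* came after them in GV at 4.98 ± 2.42 TPM, ahead of *PRKACA*, *GPR12*, *PDE4D* and *PRKAR2A* at 2.20 to 1.18, whose neighbours in that order overlapped. After maturation these 5 genes lay between 0.221 and 1.00 TPM on average, and each overlapped with its neighbour. TPM carries no TMM factor, so the fall of a mean from GV here is on the library's own total.

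MII and ‘damaged’ oocytes were compared to ask whether the genes differ between oocytes with and without a polar body. None of the 9 genes tested passed, and none had an unadjusted p under 0.05 in limma-voom, edgeR or DESeq2. Of all 13230 genes 0% were called, with 194, 273 and 251 genes at an unadjusted p under 0.05 in these tools. The groups overlapped for every gene. *PRKAR1A* was most closely bounded, at 0.01 (95% interval -0.21 to 0.24) on the log2 scale. *ADCY3* was at -0.05 (-0.36 to 0.26), *PRKACB* at -0.14 (-0.46 to 0.17) and *PDE3A* at 0.21 (-0.10 to 0.53). In limma-voom *PRKAR2A* had the smallest p, 0.141, at -0.43 (-1.02 to 0.16), and in edgeR and DESeq2 *PDE3A* had it, 0.157 and 0.134.

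For the low genes the intervals between MII and ‘damaged’ oocytes were wide. *GPR12* was at -0.36 (95% interval -1.14 to 0.43), *ADCY9* at -0.18 (-0.78 to 0.41), *PDE4D* at -0.05 (-0.60 to 0.50) and *PRKACA* at -0.09 (-0.97 to 0.78). None of the 9 isoforms was called, where 0.0134% of all isoforms tested were. The share of MII minus that of ‘damaged’ oocytes was -2.10 points for the longer *ADCY3* isoform (FDR = 1.00) and -10.98 points for the 4371-base *PRKACB* isoform (FDR = 0.562).

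**Figure D5:**
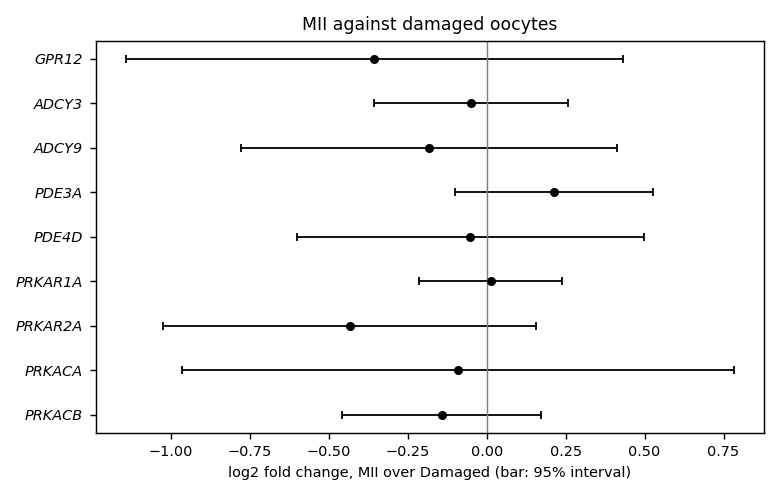
Log2 fold change of MII over ‘damaged’ oocytes for the 9 tested genes (points) with 95% intervals (bars), from limma-voom with TMM factors. Every interval includes 0, the narrowest that of *PRKAR1A* (-0.21 to 0.24) and the widest that of *PRKACA* (-0.97 to 0.78).

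The pathway around these genes was followed in 9 lists with 125 genes, the 10 genes included. Of these, 117 were in the table and 92 passed the filter. In MII against GV 24 were higher and 26 lower, the median log2 fold change being 0.01, and in ‘damaged’ against GV 25 were higher and 23 lower, and the median was -0.08. Beside these stand the shares of all genes tested, 28.2% higher and 34.2% lower in MII and 28.0% and 33.4% in ‘damaged’ oocytes, and medians of -0.17 and -0.14. On library sizes the counts were 12 and 57 in MII and 9 and 59 in ‘damaged’ oocytes, where of all genes 10.9% and 57.5%, and 11.2% and 56.0%, were called. The same shares stand beside the counts of each list. Between MII and ‘damaged’ oocytes 0 of 92 passed.

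Of 12 tested receptors and G proteins, 3 were higher and 4 lower in MII, and 3 and 3 in ‘damaged’ oocytes, and on library sizes 2 and 9 in both. The DEG among them was *GRK2*, a kinase that desensitises receptors, at 1.26 ± 0.60 CPM (SD, n = 4) in GV and 0.0698 ± 0.067 (n = 5) in MII (log2 -3.95, FDR = 1.80e-05). Of 6 adenylyl cyclases 1 was higher and 3 lower in each comparison, on library sizes 0 and 5. The DEG was *ADCY5*, from 1.61 ± 0.46 to 0.166 ± 0.11 CPM (log2 -3.25, FDR = 2.50e-05). Of 15 phosphodiesterases 4 were higher and 2 lower in each, but on library sizes 2 and 9 in MII and 1 and 9 in ‘damaged’ oocytes. *PDE1B*, which calcium and calmodulin activate, fell from 0.825 ± 0.24 to 0.0650 ± 0.077 CPM (log2 -3.46, FDR = 1.96e-05). In ‘damaged’ oocytes these 3 DEGs averaged 0.0869, 0.275 and 0.0896 CPM. After maturation they were at or near the floor of detection, as a count of 0 allows 0.127 to 0.233 CPM by library size there. The sizes of their falls are therefore poorly set. Such genes passed the filter on low counts through their GV levels, so a fall was the only change they could show.

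Of 7 protein kinase A subunits and inhibitors, 2 were higher in MII and 3 in ‘damaged’ oocytes and 0 lower, with *PRKAR1A* as the DEG. On library sizes 2 were higher and 2 lower in MII, and 1 and 2 in ‘damaged’ oocytes. Of 14 A-kinase anchoring proteins, which tether the kinase to sites in the cell, 3 were higher and 4 lower in MII, and 3 and 2 in ‘damaged’ oocytes, but on library sizes 2 and 8, and 1 and 8. *AKAP1*, the anchor at the outer mitochondrial membrane, fell from 33.2 ± 6.97 CPM in GV to 2.66 ± 0.727 in MII (log2 -3.62, FDR = 3.37e-11) and to 3.35 ± 0.315 in ‘damaged’ oocytes (log2 -3.28, FDR = 6.53e-11).

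Of 7 genes of cGMP supply and gap junctions tested, 2 were higher and 2 lower in each comparison, but on library sizes 0 and 4. The lower ones were *NPR2*, the receptor that makes cGMP in cumulus cells, from 1.81 ± 0.45 to 0.227 ± 0.20 CPM in MII (log2 -2.95, FDR = 2.01e-05), and *IMPDH1*, an enzyme of guanine nucleotide synthesis, from 1.59 ± 1.24 to 0.309 ± 0.25 CPM (log2 -2.60, FDR = 0.00430). Both were near the floor of detection after maturation, so the sizes of these falls are poorly set. Genes at such levels pass the filter on low counts through GV, so a fall was the only change they could show. With TMM factors *NPR2* moved the same way as the cumulus marker *GREM1* and against *KITLG*. Markers were not taken on library sizes, so the direction of *KITLG* is given for TMM factors alone. What part of the GV level of *NPR2* came from cumulus cells was not tested. Of 12 other cAMP effectors and response factors, 2 were higher and 5 lower in MII and 1 and 5 in ‘damaged’ oocytes, with no DEG, and on library sizes 0 and 8, and 0 and 9.

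Of 10 tested cell cycle genes linked to the kinase, not all of them its direct targets, 5 were higher and 3 lower in each comparison, and on library sizes 4 and 5. *CCNB1*, cyclin B1, rose from 892 ± 218 CPM in GV to 5309 ± 491 in MII (log2 2.60, FDR = 1.22e-11) and to 4937 ± 493 in ‘damaged’ oocytes (log2 2.49, FDR = 2.21e-11). *CDK1*, its kinase partner, fell from 416 ± 247 to 24.2 ± 6.41 CPM in MII (log2 -3.96, FDR = 3.37e-10) and to 21.8 ± 1.80 in ‘damaged’ oocytes. *CDC25B*, the phosphatase that starts maturation, fell from 125 ± 37.7 to 5.55 ± 2.01 CPM in MII (log2 -4.50, FDR = 7.74e-11) and to 10.1 ± 4.35 in ‘damaged’ oocytes (log2 -3.67). *CDC25A* fell from 46.1 ± 12.0 to 5.36 ± 1.91 CPM in MII (log2 -3.13, FDR = 2.65e-09).

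The next list holds phosphatases that oppose the kinase and regulators of these phosphatases, inhibitors among them. Of 9 tested, 2 were higher and 3 lower in MII and 3 and 3 in ‘damaged’ oocytes, but on library sizes 0 and 7, and 0 and 8. *ARPP19*, a substrate of the kinase that inhibits the phosphatase PP2A, fell from 430 ± 143 to 56.1 ± 7.36 CPM in MII (log2 -2.88, FDR = 3.13e-10) and to 56.6 ± 13.99 in ‘damaged’ oocytes. *PPP2R5D*, a regulatory subunit of PP2A, fell from 18.4 ± 10.3 to 1.03 ± 0.585 CPM in MII (log2 -4.25, FDR = 1.06e-07). *PPP1R1A*, an inhibitor of the phosphatase PP1, fell from 1.66 ± 0.96 to 0.252 ± 0.18 CPM (log2 -2.56, FDR = 0.000193). That later level is near the floor of detection, so the size of the fall is poorly set. At such levels the filter is passed through GV, and a fall was the only change open to it. All DEGs named from the lists kept their direction on library sizes, where *CCNB1* was at 1.68 and the others between -3.44 and -5.42 on the log2 scale in MII, apart from *PRKAR1A* at 1.32. For the DEGs near the floor of detection that direction was set by the filter.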

How the data were processed

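RNAseq files of 15 pig oocyte libraries were used. The authors trimmed reads with AfterQC and made estimated counts and TPM per transcript with Kallisto 0.43 on the Ensembl cDNA of Sscrofa11.1. From these the authors derived the deposited estimated counts of genes through tximport (lengthScaledTPM), with no normalization across libraries. Transcript lengths in the deposited files served for isoforms only.

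Groups came from the labels. Columns of the gene table were matched to libraries by their totals. Transcripts of a gene were found by matching summed TPM to the gene counts, which succeeded in 13829 of 14053 genes that reach 10 counts in 2 or more libraries. All 10 symbols matched a RefSeq gene (Sscrofa11.1).

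Counts were filtered with filterByExpr of edgeR 4.0.16 (minimum count 10) and fitted with limma 3.58.1 in R 4.3.3 (voom, TMM factors, 3 groups, 14 libraries). The study's methods name no such factors. FDR is the Benjamini-Hochberg value across every tested gene. A DEG passed FDR 0.01 with a log2 fold change beyond 2 in size. Isoform shares were tested with diffSplice of limma in genes over 1 TPM for isoforms with a mean share over 0.05, in place of the study's DEXSeq. Alternatives used DESeq2 1.42.0 and edgeR's quasi-likelihood test, on estimated counts rounded to whole numbers, other filters, library sizes, all 5 GV libraries, MII and ‘damaged’ joined (MIX), a replicate block, each library left out and, chosen after seeing the data, the 8 libraries with agreeing column names. The fits were run on simulated data. Few genes changed there, in both directions alike, so these runs do not test the choice of scaling. Figures used Python with matplotlib.

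Each library pooled 15 oocytes from 1 of 5 collections. Totals of 6.40 to 23.6 M counts set the precision, and floors cover counting error only.

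The genes and lists were chosen with earlier results of these data known. Named are the 10 genes, from each list the DEGs (at most 3 in each direction by log2 fold change in MII against GV), and the 3 genes most correlated with the most changed of the 10. Other genes in the closing section were chosen after their values were seen.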

Additional observations from a re-analysis of the deposited data

Results flagged for a closer look

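In 72 groups of 4 or 5 libraries, over the CPM of 9 genes and the shares of 9 isoforms, 3 had a library far from the rest by Dixon's test, which marks about 1 in 20 groups by chance. *ADCY3* was at 32.3 CPM in MII 3, where the other MII libraries held 45.7 to 49.4. *PRKAR2A* was at 1.45 CPM in GV 1, where the other 3 GV libraries used lay within 1.34 to 1.35, a gap of a few counts at 26.3 to 32.4 counts per library. With all 5 GV libraries it was GV 3 that stood apart for *PRKAR2A*, at 1.86 CPM from 20.3 counts.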

How the results depend on the processing

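On library sizes alone 1 of the 9 genes was higher, 5 were lower and 2 were DEGs (*GPR12* and *ADCY9*) in each comparison with GV, and of the pathway lists 12 were higher and 57 lower in MII and 9 and 59 in ‘damaged’ oocytes. The median gene lies lower on that scale, and *ADCY3* (-0.72 and -0.63), *PRKAR2A* (-0.62 and -0.15) and *PRKACB* (-0.42 and -0.24) changed sign in MII and ‘damaged’ oocytes, as did *PDE3A* in ‘damaged’ oocytes (-0.0432). With only genes over 10 CPM, which leaves out *ADCY9* and *GPR12* themselves, 0 were lower in both and 0 were DEGs, *PRKAR1A* being at 1.90 and 1.91, and *ADCY3* was at -0.14 and -0.0716. The exact permutation test called 0 isoforms in both, since its smallest p, 0.00794, became 0.0357 after adjustment over the 9 isoforms. In the 8 libraries with agreeing column names, chosen after seeing the data, 1 gene was lower in ‘damaged’ oocytes. Between MII and ‘damaged’ oocytes, where nothing was called, *PRKAR1A* was at -0.0259 on library sizes, -0.00463 over 10 CPM and -0.0375 in the 8 libraries, and *PRKACA* at 0.00585 in DESeq2. Leaving out each library gave 1 to 2 DEGs in MII against GV, and between MII and ‘damaged’ oocytes -0.12 to 0.0566 for *ADCY3*, -0.24 to 0.16 for *PRKACA*, -0.19 to 0.0607 for *PDE4D* and -0.0339 to 0.0595 for *PRKAR1A*.

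The labels do not say what a number marks. Deviations of same-numbered libraries had r = -0.10 to 0.32 (median 0.0719, 12 of 13 pairs above 0), against -0.28 to 0.27 (median -0.00923, 21 of 52 above 0) for others, and 9 of 14 libraries followed one of their own number most closely. By the study's methods, oocytes of every group were taken at each collection, so libraries of different groups can share a collection. That the numbers mark these collections is not stated and is only a hint from the data. Not every pair passed 0.1, so the fit without the block was kept. That fit takes no account of shared collections. With a replicate block *PRKACB* passed in MII (0.51, FDR = 0.00909), making 3 genes higher, and its 4371-base isoform lost its call (FDR = 0.0746). The block changed no other call on the 9 genes or their isoforms. The rise of *PRKAR1A* and the falls of *ADCY9* and of the longer *ADCY3* isoform passed under each alternative that tested them, apart from the permutation test. *GPR3* could not be tested at this depth.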

Other observations

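Further genes of the pathway lists changed between GV and the later groups. They were picked after their values were seen and passed FDR under 0.01 in limma-voom without being DEGs. *PRKAR2B*, the other type II regulatory subunit, was at 8.75 ± 4.60 CPM (SD, n = 4) in GV, 26.2 ± 5.66 (n = 5) in MII and 25.3 ± 6.55 in ‘damaged’ oocytes (log2 1.71 and 1.64). Among the anchoring proteins *AKAP9* rose from 166 ± 12.0 to 516 ± 65.1 CPM in MII (log2 1.62) and *AKAP11* from 33.7 ± 5.23 to 101 ± 15.7 (log2 1.58), while *AKAP10* fell from 112 ± 29.1 to 31.6 ± 13.1 (log2 -1.88).

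*CDC25C* rose from 47.3 ± 10.1 to 121 ± 25.8 CPM in MII (log2 1.35), against the fall of *CDC25A* and *CDC25B*. *WEE2*, the oocyte kinase that inhibits CDK1, rose from 544 ± 87.9 to 2150 ± 245 CPM (log2 1.99). Of the phosphodiesterases *PDE8A* rose from 48.4 ± 2.80 to 141 ± 23.7 CPM (log2 1.53). *RGS2*, a regulator of G protein signalling, rose from 443 ± 150 to 1661 ± 106 CPM (log2 1.96). On library sizes the log2 values of the genes that rose were positive, between 0.43 and 1.08 in MII, and that of *CDC25C* did not pass (FDR = 0.0261).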
